A study of Rattus norvegicus with 36 samples.

Results

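The early response of the vocal fold (VF) mucosa to injury was read from 8 of the 36 arrays of the series, those that the labels give as VF mucosa at 3 days. They are the 5 post-injury (PI) arrays and the 3 control arrays of that time. Each PI array held the VF mucosae of 4 male Fischer 344 rats, pooled after bilateral stripping of the mucosa at 120 days of age and harvest at 123 days. Each control array held the pooled mucosae of 4 male Fischer 344 rats that were experimentally naive and aged 123 days. The comparison therefore stands for 20 injured and 12 control rats, but its replicates are pools. The control rats had no operation, so the effects of surgery and of the wound cannot be told apart. For comparison with a later stage, the 5 PI and 3 control arrays at 14 days (134 days of age, 4 rats per array) were used.

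The VF mucosa is a stratified squamous epithelium over a lamina propria of collagen, elastic fibers and hyaluronan, with ciliated and glandular epithelium next to it and skeletal muscle beneath. In a mucosal wound, plasma proteins form a provisional matrix, neutrophils and then monocytes enter, and epithelial cells, fibroblasts and endothelial cells divide, migrate and deposit new matrix. Growth factors of the TGF-β, EGF, FGF and Wnt families pass between these cells, and proteases remodel the matrix as it forms.

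Each value is the log2 signal of a probe set on an Affymetrix rat array after RMA, the method by which the authors combined the probes. All arrays were brought to the same distribution, so a value is a level among the RNAs of that array, and fewer cells of a type cannot be told apart from less RNA per cell. Differences are log2 fold changes, PI minus control, given with their standard error (SE) from limma, a linear model fitted over all genes. A gene was called higher or lower at an adjusted p (Benjamini-Hochberg) under 0.05. Levels of different genes are not compared, since probe sets differ in response.

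The markers fixed for the tissue included those of squamous epithelium, glands and muscle. In the control arrays, the keratins Krt5, Krt14 and Krt15 had 12.91 to 14.29 log2, the gland products Bpifa1 and Scgb1a1 14.49 to 14.6 log2, and the muscle actin Acta1 13.79 to 14.25 log2. The thyroid markers Tg and Tshr had 5.32 to 5.72 log2, and the fat markers Adipoq, Plin1 and Cidec 4.28 to 5.69 log2, in the same arrays. The cartilage markers Acan and Cnmd varied between pools, with 9.0, 7.69, 6.72, 9.04 and 6.23 log2 and 9.33, 5.91, 4.85, 9.42 and 4.45 log2 in PI arrays 1 to 5 and 8.49, 7.28 and 8.0 log2 and 9.12, 6.87 and 7.95 log2 in control arrays 1 to 3, which is a spread of over 2 log2 units within the PI group.

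Of 14217 genes tested, 3771 (26.5%) were called, 2064 higher (14.5%) and 1707 lower (12%), and 5268 had an unadjusted p under 0.05. The excess of rises depended on the scaling and on the probe sets counted, with 1833 higher and 1910 lower after each array was centred on its median, 1798 and 1827 after quantile normalization of the 3-day arrays, and 3412 and 3723 of all 31042 probe sets. Of the 10216 probe sets without a single gene symbol 564 were higher and 1458 lower. Most shifts were modest. At least 2-fold rises were found for 451 genes and at least 2-fold falls for 284, at least 4-fold rises for 99 and falls for 21, and at least 8-fold rises for 19 and a fall for 1, Tff2. Another 1962 called genes differed by less than 1.5-fold. Every PI array lay apart from every control array in 3176 of the called genes and in 4431 genes in all (31.2%). Of the 10446 genes not called, 8086 had a 95% confidence interval of the difference within 1.5-fold in either direction, so for these a larger change is outside the interval. The median log2 fold change of all genes was 0.01 and the median SE was 0.12. With limma's array weights, which give less influence to arrays that deviate, 8342 genes were called. The weights of control replicates 1 to 3 of 3 days were 0.56, 0.47 and 6.55, so that fit rested mostly on control replicate 3. With any 1 of the 8 arrays left out, 2159 of the called genes (57.3%) passed in the same direction each time. Genes named below belong to these unless an adjusted p with an array left out stands beside them.

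PI replicate 5 stood apart from the other PI arrays. Its median absolute deviation from the group mean was 0.17 log2, against 0.07 to 0.09 log2 in PI replicates 1 to 4 and 0.07 to 0.10 log2 in the controls. The difference between the 3′ and 5′ probe sets of β-actin is a sign of RNA quality that grows as RNA degrades. It was lower in this array (0.62 log2) than in the other PI arrays (0.80 to 0.90 log2) and the controls (0.90 to 0.97 log2). The same difference did not set it apart for GAPDH (0.047 log2, against 0.012 to 0.118 in the other PI arrays and 0.066 to 0.095 in the controls) or for hexokinase (1.258 log2, against 1.188 to 1.301 and 1.124 to 1.366). The RNAs added to each sample as controls separated the groups, with means of 9.02 to 9.11 log2 in PI and 9.18 to 9.95 log2 in control arrays for the polyadenylated ones and 10.99 to 11.08 log2 in PI and 11.11 to 11.48 log2 in control arrays for those of hybridization, and the part of this difference in the results was not tested. Over all genes the deviations of PI replicate 5 from the group mean correlated with those of control replicate 3 at 14 days and PI replicate 4 at 60 days (Pearson r = 0.60 for each, a description across genes). Without it, 3805 genes were called (26.8%), 2081 higher (14.6%) and 1724 lower (12.1%). In a fit to the 3-day arrays alone, the version without it added after the data were seen, the change was larger, with 5309 calls without it (2983 higher and 2326 lower) and 3717 with it (2064 and 1653). In the fit over all groups, of the 3771 genes called with it, 3398 (90.1%) were also called without it, all in the same direction, so that 373 were called only with it and 407 only without it. The last group held 219 rises and 188 falls. The largest rises in it were those of Comp, a cartilage and tendon matrix protein (log2 fold change 1.8 without the array and 1.39 with it), the chemokine Cxcl1 (1.5 and 1.11), Gpr15lg, a ligand of a receptor on T cells (1.21 and 0.90) and the keratin Krt12 (1.09 and 0.86). The largest falls were those of Nxpe4 (-1.2 and -0.95), Coch (-1.16 and -0.94), the small heat shock protein Hspb7 (-0.99 and -0.91) and the semaphorin Sema3d (-1.04 and -0.75).

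**Figure D1:**
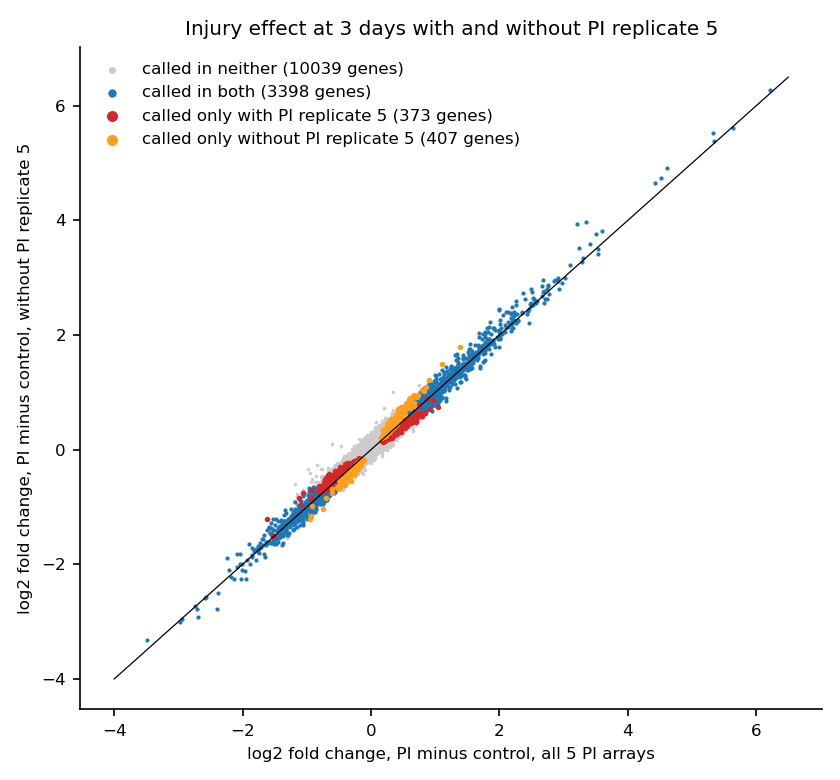
Each point is a gene. The x axis gives the log2 fold change (PI minus control) with all 5 PI arrays and the y axis that without PI replicate 5, and colours show whether the gene was called in both fits, in one of them or in neither. The 3398 genes called in both lie along the diagonal, and 772 of the 780 genes called in a single fit lie between -1 and 1 on the x axis.

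The genes in which PI replicate 5 differed most from the other PI arrays included genes of neutrophils, cartilage and epithelium. Relative to the mean of those 4 arrays its level was -3.64 log2 in S100a9 and -3.04 log2 in S100a8, the calprotectin subunits of neutrophils and stressed keratinocytes, and -3.61 log2 in the cysteine protease inhibitor Stfa3. The cartilage genes Col10a1, Cytl1, Cnmd and Chad, and Sprr1a of the cornified envelope, were the other 5 of the 8 genes in which it lay farthest below. It was higher in Cyp2a3, an enzyme of nasal and airway epithelium, and in Rgs22, Tsga10, Map3k19, Sec14l3, Tcea1, Sema3d and Myb, by 1.4 to 1.9 log2. Over whole lists, its median deviation from the other PI arrays was -1.43 log2 for cartilage, -0.90 for S100 proteins, -0.87 for the respiratory chain, -0.71 for chemokine ligands and 0.66 for motile cilia. It was -0.02 log2 for cell division and 0.03 log2 for collagen processing. Low cartilage signal was not particular to PI replicate 5. Cnmd had 4.85 log2 in PI replicate 3 and 4.45 log2 in PI replicate 5, against 9.33, 5.91 and 9.42 log2 in PI replicates 1, 2 and 4. The part that RNA quality or the dissection of this pool has in these differences was not tested.

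**Figure D2:**
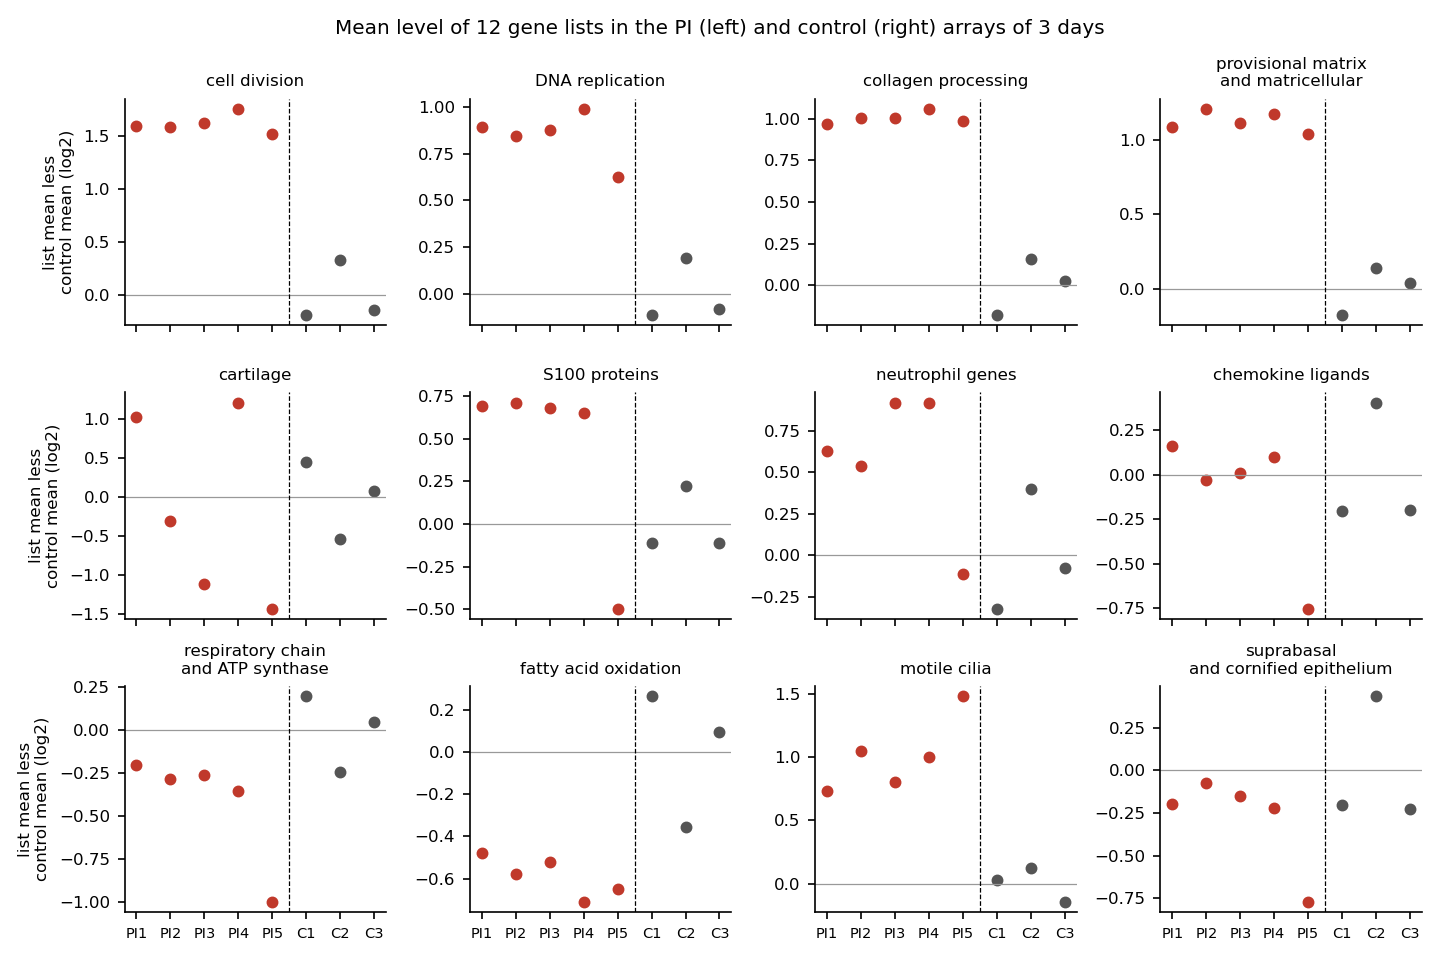
The mean log2 level of 12 gene lists in each array, less the mean of the 3 control arrays, with the 5 PI arrays to the left and the 3 control arrays to the right of the dashed line. PI replicate 5 lies with the other PI arrays for cell division and collagen processing, and away from them for S100 proteins and the respiratory chain. In cartilage genes PI replicate 3 was also low, as in Acan (6.72 log2, against 6.23 log2 in PI replicate 5).

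Among the control arrays, replicate 2 was nearest to the PI arrays in 2209 of the called genes (58.6%), replicate 1 in 877 and replicate 3 in 685. The number of calls was 2676 without control replicate 1, 3587 without control replicate 2 and 2729 without control replicate 3. Lists whose counts move by over 1.5 times with an array left out, other than from 0 to 1, are given with that count. Over all genes 14.5% rose and 12% fell, and a list with shares near these is not set apart by its counts. A gene with several probe sets is counted by 1 of them. Of 182 called list members with several probe sets, 70 had another that gave under 1/3 of the change or the opposite sign, and of 255 uncalled ones, 12 had another that was called at 2-fold or more. Such values are given beside the genes named.

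Of the 80 gene lists, cell division had the largest share of rises. In it, 38 of 41 measured members rose and none fell (92.7%, against 14.5% of all genes, median log2 fold change 1.69 over the list, 1.72 without PI replicate 5), and the PI and control arrays did not overlap in any of the 38. Over all genes the groups did not overlap in 3176 of the 3771 called. Ccna2, the cyclin of S phase and mitotic entry, had 9.39, 9.23, 9.28, 9.55 and 9.34 log2 in PI arrays 1 to 5 and 6.44, 7.44 and 6.63 log2 in control arrays 1 to 3 (log2 fold change 2.52, SE 0.19, limma adjusted p = 4.84e-09). Cdk1, the kinase that drives mitotic entry, had 10.48, 10.55, 10.44, 10.71 and 10.25 log2 in PI arrays 1 to 5 and 7.73, 8.6 and 7.68 log2 in control arrays 1 to 3 (log2 fold change 2.48, SE 0.27, limma adjusted p = 6.06e-07). Control replicate 2 was the highest control for both, and every PI array lay above it. Plk4, which starts the duplication of centrioles and was among the 12 largest rises outside muscle and tenascins, had 9.77, 9.84, 9.96, 10.2 and 10.61 log2 in PI arrays 1 to 5 and 6.84, 7.68 and 6.92 log2 in control arrays 1 to 3 (log2 fold change 2.93, SE 0.22, limma adjusted p = 4.79e-09). The spindle checkpoint kinases Bub1 and Ttk rose by 2.09 and 2.14 log2, the kinesins Kif20a, Cenpe and Kif11 by 2.2, 2.04 and 1.66, and the cytokinesis factor Ect2 by 1.99. Cenpf was not called (log2 fold change 0.13). Nor was Cdc20, the activator of the anaphase-promoting complex, in the probe set used (0.20), but its probe sets disagreed, and a pair of the 5 gave 1.53 and 1.74.

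The genes that copy DNA rose less steeply. Of the DNA replication list, 27 of 30 measured members rose and none fell (median log2 fold change 0.77). Tk1, the thymidine kinase of S phase, had 9.11, 9.21, 9.1, 9.38 and 8.47 log2 in PI arrays 1 to 5 and 6.92, 7.44 and 6.99 log2 in control arrays 1 to 3 (log2 fold change 1.94, SE 0.22, limma adjusted p = 1.37e-06, and 1.15 and 0.22 in its other probe sets), with the PI arrays all above the controls. Uhrf1, which keeps DNA methylation through replication, rose by 1.83 log2, and the helicase subunits Mcm6, Mcm5, Mcm3 and Mcm4 by 1.5, 1.25, 1.01 and 0.97. Tyms, thymidylate synthase, rose by 1.07. Of 10 genes of homologous recombination and checkpoints, 8 rose and 1, Blm, fell (adjusted p = 0.0509 to 0.130 without PI replicate 2 or control replicates 1 or 3), led by the exonuclease Exo1 (1.56 ± 0.13) and Rad54l (1.4 ± 0.12). In the list of G1 and S phase regulators, 11 of 20 rose and 2 fell (1 fall without control replicate 2). The S phase cyclin Ccne1 and the repressor E2f8 rose by 1.15 and 2.03 log2, as did the cell cycle inhibitors Cdkn1a and Cdkn1c, by 1.03 and 1.35, while Ccnd2 fell by 0.87 log2 and Ccnd1 and Myc had log2 fold changes of -0.20 and 0.00. Among enzymes of nucleotide and one-carbon synthesis, 5 of 22 rose and 2 fell (1 fall without PI replicates 2 or 3 or control replicates 1 or 3), with Shmt2 and Mthfd2 of the mitochondrial folate pathway at 0.63 and 0.51 log2.

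The promoters of these genes were read from RefSeq models on the GRCr8 build, with the 250 bases before each start site and the 50 after it. Of the 41 cell division genes measured 37 had a promoter, as had 28 of 30 DNA replication genes. The cell cycle homology region, TTTGAA on either strand, which is bound by the MuvB repressor and activator complexes, occurred in 25 of the 37 (67.6%), 2 of the 28 (7.14%) and 18.1% of all 27457 promoters. The E2F motif, TTTGGCG or TTTCGCG on either strand, occurred in 2 of 37 (5.41%), 17 of 28 (60.7%) and 2.36% of all promoters. The CCAAT box, CCAAT on either strand, occurred in 27 of 37 (73%), 17 of 28 (60.7%) and 37.7%. In the sterol synthesis list, of which no gene was called higher, it occurred in 12 of 14 promoters (85.7%). A match of letters is no evidence of binding. The 150 bases before the start site of 5 genes are given to show how the motifs lie, on the strand of the gene, with the matches to all 3 motifs in capitals. Cdk1, Hmmr and Ccnb2 each had CCAAT boxes (CCAAT or ATTGG) and the cell cycle homology region, and Cdk1 also had an E2F motif (TTTCGCG).
Cdk1 (chr20:19265143-19265292, plus strand): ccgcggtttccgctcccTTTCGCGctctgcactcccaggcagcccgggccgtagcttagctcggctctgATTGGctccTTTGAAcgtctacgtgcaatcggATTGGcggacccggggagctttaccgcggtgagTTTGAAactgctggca
Hmmr (chr10:25665216-25665365, minus strand): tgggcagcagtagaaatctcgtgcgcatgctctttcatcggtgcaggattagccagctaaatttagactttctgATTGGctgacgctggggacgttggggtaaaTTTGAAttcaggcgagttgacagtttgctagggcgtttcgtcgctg
Ccnb2 (chr8:79981659-79981808, minus strand): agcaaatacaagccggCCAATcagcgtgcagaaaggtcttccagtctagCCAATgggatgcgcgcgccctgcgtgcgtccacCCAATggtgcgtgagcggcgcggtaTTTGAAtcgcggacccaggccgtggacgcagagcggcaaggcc
Mcm6 and Tyms of the replication list each had the E2F motif, and in Mcm6 a match on each strand overlaps the other and 2 CCAAT boxes follow.
Mcm6 (chr13:42404353-42404502, minus strand): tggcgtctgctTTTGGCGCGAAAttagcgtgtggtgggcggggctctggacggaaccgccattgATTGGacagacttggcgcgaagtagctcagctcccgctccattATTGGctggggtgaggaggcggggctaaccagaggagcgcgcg
Tyms (chr9:120776084-120776233, minus strand): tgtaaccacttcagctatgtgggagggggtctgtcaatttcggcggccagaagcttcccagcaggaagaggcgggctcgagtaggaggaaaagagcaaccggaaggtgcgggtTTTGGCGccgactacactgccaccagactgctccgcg
The log2 fold changes of Cdk1, Hmmr and Ccnb2 were 2.48, 2.01 and 1.99, and those of Mcm6 and Tyms 1.5 and 1.07. All 5 were picked as examples after their values were seen, as the largest rises of their lists whose printed bases held the motifs. Cell division genes needed the cell cycle homology region and a CCAAT box, and replication genes the E2F motif. That each gene holds these motifs therefore follows from the choice.

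Matrix genes formed the next group. Of 23 provisional matrix and matricellular genes, 12 rose and 1 fell (2 falls without control replicate 1), and after the tenascins the largest rises were those of matricellular proteins, which modulate adhesion. Thbs2, a thrombospondin that binds growth factors and proteases, had 8.93, 9.07, 9.02, 9.18 and 9.05 log2 in PI arrays 1 to 5 and 6.27, 6.64 and 6.47 log2 in control arrays 1 to 3 (log2 fold change 2.59, SE 0.16, limma adjusted p = 2.23e-10). Ccn4 and Ccn1, matricellular proteins that engage integrins, rose by 2.02 and 1.99 log2, and periostin (Postn) by 1.92. All PI arrays lay above all control arrays for these 4 genes. Versican (Vcan) and Ccn2 rose by 0.93 and 0.78, but of the 5 probe sets of Vcan the one with the highest mean gave -0.10. Fn1, fibronectin, was not called (log2 fold change 0.45, 95% interval -0.03 to 0.93), and vitronectin (Vtn) fell by 0.68 log2.

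Collagen genes rose with the enzymes that modify their product. Of 18 collagen chains, 14 rose and 1 fell (no falls without control replicate 2 and 2 falls without PI replicate 4), with a median log2 fold change of 1.13. Col5a3, a minor fibril chain that regulates fibril diameter, had 10.11, 10.08, 10.65, 10.29 and 10.4 log2 in PI arrays 1 to 5 and 6.71, 7.19 and 7.13 log2 in control arrays 1 to 3 (log2 fold change 3.29, SE 0.14, limma adjusted p = 1.24e-12), the largest rise of the list. The main fibrillar chains Col1a1, Col1a2 and Col3a1 rose by 2.3, 1.21 and 0.73 log2, the other type V chains Col5a1 and Col5a2 by 1.97 and 1.78, and the type VI chains Col6a1, Col6a2 and Col6a3 by 1.16, 1.2 and 1.77 (for Col6a2, -0.10 in its other probe set). Of 21 genes of collagen processing, 16 rose and 1, Tgm2, fell (adjusted p = 0.0567 to 0.179 without PI replicate 4 or control replicates 2 or 3). Plod2, the lysyl hydroxylase that acts on collagen telopeptides, had 11.71, 11.71, 11.72, 11.81 and 11.81 log2 in PI arrays 1 to 5 and 8.26, 9.12 and 8.83 log2 in control arrays 1 to 3 (log2 fold change 3.02, SE 0.16, limma adjusted p = 3.77e-11). The cross-linking oxidases Loxl2 and Lox rose by 2.75 and 2.43 log2, the prolyl hydroxylases P4ha3 and P3h1 by 1.74 and 1.35, the endoplasmic reticulum chaperones Fkbp10 and Serpinh1 by 1.59 and 1.4 (for Serpinh1, 0.46 in its other probe set), and Pcolce, an enhancer of propeptide cleavage, by 1.62. Ppib and Crtap, partners of P3h1 in the prolyl 3-hydroxylation complex, had log2 fold changes of 0.07 and -0.07 and were not called. Genes of secretory traffic followed in part, as 7 of 28 measured members rose and none fell. Kdelr3, a receptor that returns chaperones to the endoplasmic reticulum, and Sec24d, a coat protein needed for export of procollagen, rose by 1.1 and 0.61 log2.

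The basement membrane list split. Of 17 members, 7 rose and 6 fell. Nid2, a nidogen that links laminin to collagen IV, had 10.21, 10.12, 10.34, 10.4 and 10.08 log2 in PI arrays 1 to 5 and 7.93, 7.35 and 7.75 log2 in control arrays 1 to 3 (log2 fold change 2.55, SE 0.16, limma adjusted p = 2.23e-10). The paired chains Col4a1 and Col4a2 rose by 1.29 and 1.21 log2 and the laminin chains Lama4 and Lamb1 of vessels and stroma by 1.0 and 0.97 (for Lama4, -0.14 in its other probe set). The chains Col4a6 and Lamc3 fell by 1.32 and 0.94 log2 and Lama2, the laminin chain of muscle and Schwann cell basement membranes, by 0.62 log2. Of 11 genes of epithelial anchoring, 5 rose and none fell (3 rises without control replicates 1 or 3). Col7a1, the collagen of anchoring fibrils, rose by 2.09 log2 (SE 0.15) and Lama3 and Lamb3, chains of laminin-332, by 1.31 and 0.73. The integrin Itga6 and plectin (Plec) were not called (0.67 and -0.07).

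Elastic fiber genes moved in opposite directions. Of 15 members, 5 rose and 6 fell. Fbn2, the fibrillin of developing microfibrils, had 8.56, 8.91, 8.66, 8.89 and 8.69 log2 in PI arrays 1 to 5 and 6.35, 6.84 and 7.0 log2 in control arrays 1 to 3 (log2 fold change 2.01, SE 0.23, limma adjusted p = 1.3e-06). Ltbp4, a latent TGF-β binding protein that takes part in elastic fiber assembly, had 10.67, 10.75, 10.63, 10.47 and 10.56 log2 in PI arrays 1 to 5 and 12.32, 12.65 and 12.67 log2 in control arrays 1 to 3 (log2 fold change -1.93, SE 0.12, limma adjusted p = 2.81e-10). The PI arrays were all above the controls for Fbn2 and all below them for Ltbp4. Fbln1 and Mfap2 fell by 1.24 and 1.19 log2, Fbn1 and Fbln2 rose by 0.67 and 0.83, and elastin (Eln) had a log2 fold change of -0.25 and was not called, with -1.64 in its other probe set. Among genes of hyaluronan metabolism 6 of 13 rose and 1 fell (no falls without control replicate 2). The 6 were the synthase Has2 (1.06 ± 0.11 log2), the depolymerizing protein Cemip (2.67 ± 0.26), its relative Cemip2, and the binding proteins Tnfaip6 (1.62 ± 0.23), Hmmr and Vcan. Hyal2 and the receptor Cd44 were not called (0.12 and -0.05). Of the small leucine-rich proteoglycans, 3 of 10 rose and 1 fell. Asporin (Aspn) rose by 2.26 log2, lumican (Lum) by 0.36, and decorin (Dcn) had a log2 fold change of -0.14 and was not called.

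Proteases and their inhibitors both included rises and falls. Of 16 matrix metalloproteinases, 8 rose and 2 fell. Mmp13, the collagenase of rodent wounds, had 8.57, 9.47, 8.35, 8.52 and 7.45 log2 in PI arrays 1 to 5 and 4.81, 5.65 and 4.42 log2 in control arrays 1 to 3 (log2 fold change 3.51, SE 0.54, limma adjusted p = 5.22e-05). Mmp7, matrilysin of injured epithelium, had 9.52, 9.33, 9.96, 9.24 and 7.68 log2 in PI arrays 1 to 5 and 6.49, 7.29 and 6.54 log2 in control arrays 1 to 3 (log2 fold change 2.37, SE 0.42, limma adjusted p = 2.39e-04). Every PI array exceeded every control array for both, and PI replicate 5 was the lowest PI array for both. Mmp14, the membrane-bound activator of Mmp2, rose by 0.91 log2, and Mmp2 and Mmp9, the gelatinases, were not called (-0.16 and 0.09). Mmp12, the elastase of macrophages, fell by 2.09 log2 (SE 0.31) to 10.12, 10.81, 10.79, 10.89 and 10.41 log2 in PI arrays 1 to 5, against 11.94, 13.26 and 12.9 log2 in the controls. Of the inhibitors and ADAM proteases, 8 of 17 rose and 4 fell. Adamts12 and Adamts4, proteases of cartilage and proteoglycan matrix, rose by 2.98 and 2.92 log2. Timp1 had 13.18, 12.92, 12.97, 13.12 and 11.99 log2 in PI arrays 1 to 5 and 10.78, 11.66 and 10.88 log2 in control arrays 1 to 3 (log2 fold change 1.73, SE 0.31, limma adjusted p = 3.15e-04), with every PI array above the controls. Timp3, the inhibitor bound to the matrix, had 10.93, 11.21, 10.93, 10.9 and 11.15 log2 in PI arrays 1 to 5 and 12.4, 12.76 and 12.79 log2 in control arrays 1 to 3 (log2 fold change -1.63, SE 0.14, limma adjusted p = 3.19e-08), with every PI array below them. Timp4 fell by 1.26 log2 and Timp2 was not called (-0.06).

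**Figure D3:**
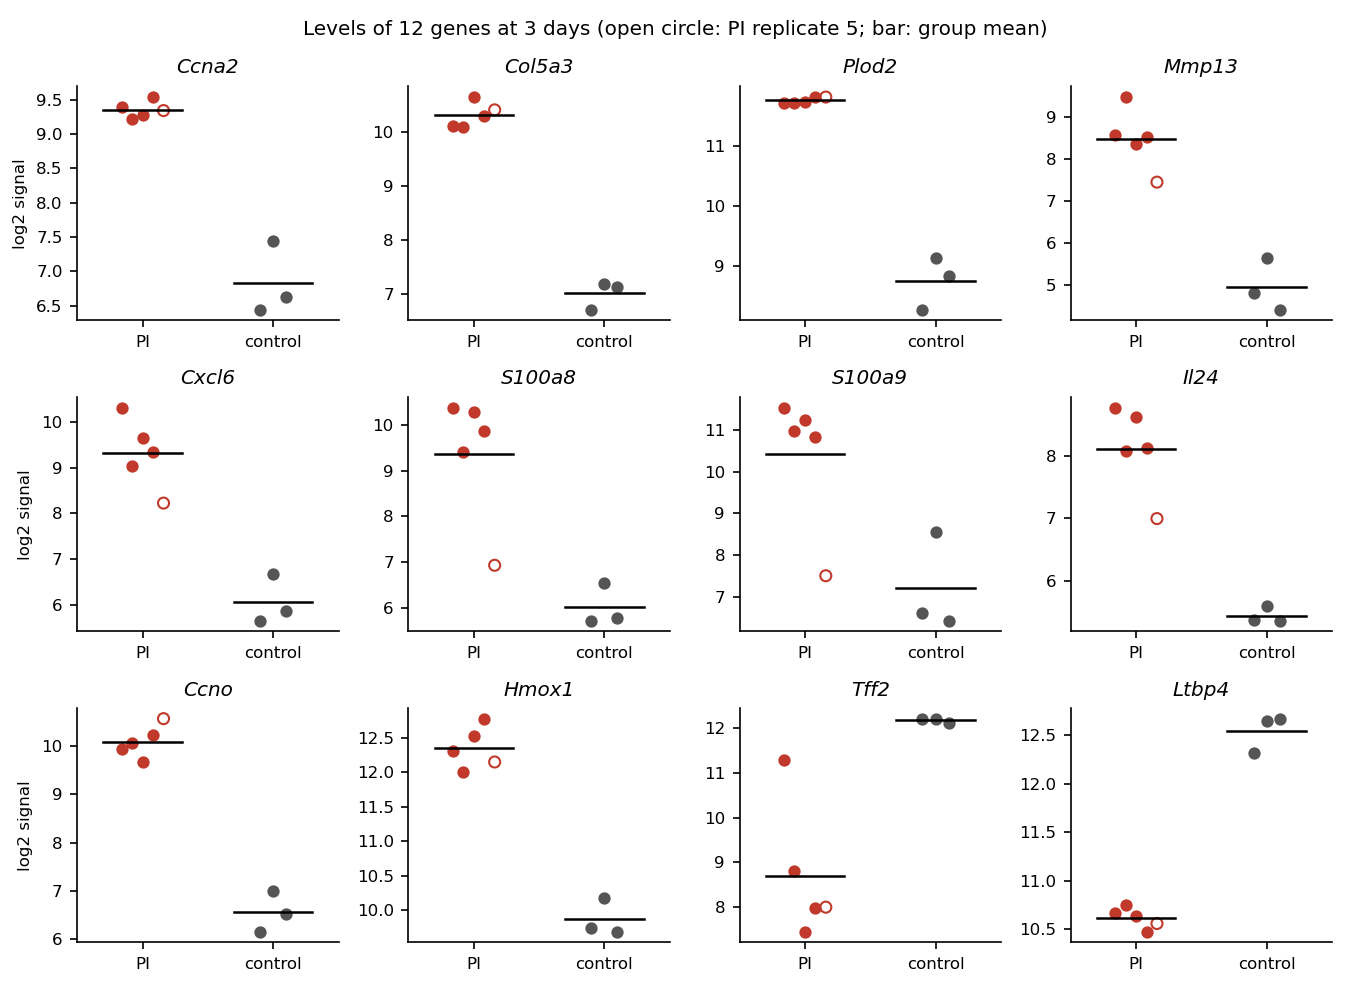
Log2 signal of 12 genes in the 5 PI arrays (left) and the 3 control arrays (right) of 3 days, with the group means as bars and PI replicate 5 as an open circle. The groups do not overlap in 11 of the 12 genes, against 3176 of all 3771 called genes. In S100a9 PI replicate 5 lies among the control arrays, and in Mmp13, Cxcl6 and S100a8 it is the lowest PI array.

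The plasminogen and clotting list rose in large part, with 12 of 20 members higher and 2 lower (1 fall without control replicates 2 or 3). Procr, the endothelial receptor of protein C, and Tfpi2, an inhibitor of tissue factor and plasmin, rose by 1.47 and 1.74 log2. The plasminogen activator Plat rose by 0.93, together with the inhibitors of such proteases Serpine2 and Serpinb2 (0.90 and 0.96) and the thrombin receptor F2r (0.76). F13a1, which cross-links fibrin and is made by tissue macrophages, fell by 1.52 log2. Among the integrins 7 of 17 rose and 3 fell (1 fall without control replicates 2 or 3). Itgb3, Itga5 and Itgav, subunits of receptors for fibronectin or vitronectin, rose by 1.19, 1.13 and 0.80 log2 (for Itgav, adjusted p = 0.0865 without control replicate 1, and 0.65 and 0.20 in its other probe sets), as did Itga7, the laminin receptor of muscle, by 1.43 (1.21 and 0.21 in its other probe sets). Itgb1, the partner of Itga5, was not called (0.31, adjusted p = 0.0664, and 0.74 in its other probe set). Itgb5 fell by 0.53 log2, with -0.09 and 0.05 in its other probe sets. Of 25 genes of smooth muscle and myofibroblasts, 11 rose and 2 fell (1 fall without control replicate 3). The actin Acta2 had 10.32, 10.08, 10.19, 10.35 and 9.89 log2 in PI arrays 1 to 5 and 9.59, 9.03 and 9.36 log2 in control arrays 1 to 3 (log2 fold change 0.84, SE 0.18, limma adjusted p = 0.00151), and Tagln, a companion of actin filaments, and Fap, a surface protease of activated fibroblasts, rose by 1.58 and 1.78 log2. Lmod1, of mature smooth muscle, fell by 1.19 log2, and Cnn1 and Pdgfrb were not called (-0.14 and -0.13), with 0.73 in another probe set of Pdgfrb. In the list of actin dynamics, 7 of 22 rose and none fell (11 rises without control replicate 2), led by the tubulin Tubb6 (1.99 ± 0.19 log2, and 0.20 in its other probe set) and the actin bundler Fscn1 (1.34 ± 0.15).

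In the signaling lists single ligands, receptors and targets were called. In the TGF-β list, 5 of 15 rose and none fell (2 rises without control replicate 1). Lrrc32, which holds latent TGF-β at the cell surface, rose by 1.25 log2, Tgfb3 by 0.37 (adjusted p = 0.0535 to 0.112 without control replicates 1 or 2), and Tgfb1, Tgfb2 and the receptor Tgfbr1 had log2 fold changes of 0.27, 0.16 and 0.01 and were not called. In the BMP and activin list 5 of 25 rose and 8 fell. The activin subunit Inhba had 10.85, 10.26, 10.72, 10.46 and 10.34 log2 in PI arrays 1 to 5 and 8.2, 9.21 and 8.86 log2 in control arrays 1 to 3 (log2 fold change 1.77, SE 0.19, limma adjusted p = 6.18e-07), with no overlap between the groups, and Inhbb rose by 1.03 log2, as did the BMP antagonist Nog (0.90). The ligands Bmp4 and Gdf10 fell by 0.98 and 1.53 log2, and Id2 and Id4, targets of BMP signaling, by 0.95 and 1.08. Of 28 Wnt genes 6 rose and 4 fell. The secreted Wnt binders Sfrp4 and Sfrp2 rose by 2.75 and 2.16 log2 (for Sfrp4, 0.05 in its other probe set) and the receptor Fzd2 by 1.12, while the ligands Wnt4 and Wnt2b fell by 0.63 and 0.74 and the target Axin2 was not called (-0.30). Of the transcription factors of mesenchyme 6 of 13 rose and none fell. Prrx1, which acts in limb and wound mesenchyme, had 8.03, 8.08, 7.87, 8.25 and 7.84 log2 in PI arrays 1 to 5 and 5.38, 6.08 and 5.91 log2 in control arrays 1 to 3 (log2 fold change 2.23, SE 0.18, limma adjusted p = 1.45e-08), with no overlap, and Sox11 and Snai1 rose by 1.54 and 1.26. Twist1, Zeb1 and Zeb2 were not called (0.06, 0.20 and 0.33).

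The counts of the growth factor lists are to be set beside the shares over all genes, 14.5% higher and 12% lower. In the EGF family 2 of 12 rose and 1 fell (1 rise without PI replicate 3 or control replicate 1 and 2 falls without PI replicate 5), in the list of FGF and HGF signaling 4 of 17 rose and 4 fell, and in that of PDGF, VEGF and angiopoietins 2 of 17 rose and 3 fell. Hbegf, an EGF receptor ligand shed in wounds, rose by 0.78 log2 and Egf fell by 1.51 log2. The ligands Areg, Tgfa and Ereg were not called with all arrays (0.73, 0.04 and -0.16), and Areg had a log2 fold change of 0.95 without PI replicate 5 (adjusted p = 0.0236). Hgf and Fgf18 rose by 0.61 and 0.58, the receptor Fgfr4 by 1.18, and Fgf7 and Fgf10, growth factors for epithelium, had log2 fold changes of -0.10 and -0.46 without being called. Angpt2, which loosens vessels, rose by 1.24 and Vegfd by 0.78, whereas Vegfa, Vegfb and Pgf fell by 0.69, 1.12 and 0.71. Of 25 endothelial genes 11 rose and 1 fell, among them the selectins Sele and Selp (1.32 and 1.11 log2, and for Selp 0.11 in its other probe set), the transcription factors Sox18 and Sox7 (1.12 and 0.94), Apln of sprouting vessels (0.88, and 0.26 in its other probe set) and Pecam1 (0.84). Esm1 fell by 0.99, and Kdr and Tek, the receptors of VEGF and the angiopoietins, were not called (-0.03 and -0.02).

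Single inflammatory genes moved in both directions, and the counts of their lists are to be set beside 14.5% higher and 12% lower over all genes. Of 15 neutrophil genes, 5 rose and 2 fell (3 rises without control replicate 2 and no falls without control replicates 2 or 3). S100a8 had 10.37, 9.4, 10.28, 9.86 and 6.93 log2 in PI arrays 1 to 5 and 5.72, 6.54 and 5.78 log2 in control arrays 1 to 3 (log2 fold change 3.35, SE 0.66, limma adjusted p = 6.67e-04). S100a9 had 11.54, 10.97, 11.23, 10.83 and 7.5 log2 in PI arrays 1 to 5 and 6.61, 8.56 and 6.42 log2 in control arrays 1 to 3 (log2 fold change 3.21, SE 0.79, limma adjusted p = 0.00418), so that PI replicate 5 lay among the controls. Csf3r, the receptor of granulocyte colony-stimulating factor, had 8.0, 7.38, 7.86, 8.21 and 6.65 log2 in PI arrays 1 to 5 and 5.04, 5.72 and 4.6 log2 in control arrays 1 to 3 (log2 fold change 2.5, SE 0.43, limma adjusted p = 1.79e-04). Cxcr2 had a log2 fold change of 0.52, with adjusted p = 0.0513 with all arrays and 0.0216 without PI replicate 5. Camp and Lcn2 were not called (0.07 and 0.50). A sum of linear signal is weighted to the brightest genes and does not measure neutrophil content. For the 15 genes it was 10360 to 17370 in PI arrays and 11390 to 22610 in control arrays. PI replicate 5 had the lowest sum among the PI arrays. Its part in the inflammatory genes that follow was not tested.

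Of 29 chemokine ligands, 2 rose and 7 fell (4 rises without PI replicate 5). Cxcl6, a ligand of the neutrophil receptors, had 10.31, 9.03, 9.65, 9.34 and 8.23 log2 in PI arrays 1 to 5 and 5.66, 6.67 and 5.88 log2 in control arrays 1 to 3 (log2 fold change 3.24, SE 0.53, limma adjusted p = 9.37e-05). Ccl11, eotaxin, had 10.36, 7.97, 8.21, 7.57 and 6.94 log2 in PI arrays 1 to 5 and 5.74, 5.83 and 5.59 log2 in control arrays 1 to 3 (log2 fold change 2.49, SE 0.51, limma adjusted p = 0.00104). Every PI array was above every control array for both. The largest falls were those of Ccl9 (2.09 log2, SE 0.40), the B cell attractant Cxcl13 (1.68), Ccl24 (1.66) and Ccl28 (1.55) of mucosal epithelium, and Cxcl12, which retains leukocytes in tissues, fell by 1.24. The monocyte attractants Ccl2 and Ccl7 had log2 fold changes of -0.23 and 0.07 and were not called (95% intervals -0.95 to 0.49 and -0.83 to 0.97). Without PI replicate 5 Cxcl1 and Cxcl3 passed as well (1.5 and 0.94, adjusted p = 0.0300 and 0.0139).

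Of 10 interleukin 1 family genes 4 rose and none fell (2 rises without control replicate 1). Il1a had 9.11, 8.87, 9.01, 8.18 and 7.33 log2 in PI arrays 1 to 5 and 6.73, 7.56 and 6.56 log2 in control arrays 1 to 3 (log2 fold change 1.55, SE 0.41, limma adjusted p = 0.00698), and the lowest PI array lay among the controls. Il1b rose by 1.81 log2 (adjusted p = 0.0548 to 0.120 without PI replicates 1 or 4 or control replicates 1 or 3). Il33, an alarmin of barrier cells, rose by 0.67 log2. Il1rl1, its receptor, had a log2 fold change of -0.07 in the probe set used and was counted as not called, but 2.55 in its other probe set. Both Il1rn and the receptor Il1r1 were not called (-0.53 and 0.26). In the interleukin 6 family 3 of 12 rose and 2 fell. Il6 had 6.99, 5.96, 6.35, 5.55 and 5.18 log2 in PI arrays 1 to 5 and 4.1, 4.93 and 4.15 log2 in control arrays 1 to 3 (log2 fold change 1.61, SE 0.31, limma adjusted p = 5.11e-04), and Socs3, its feedback inhibitor, rose by 0.91. Among other cytokines and receptors 3 of 26 rose and 4 fell (7 rises without control replicate 2). These shares lie near those over all genes (14.5% higher and 12% lower), beside which the lists that follow are also to be set. Il24, a cytokine of the interleukin 10 family that acts on keratinocytes, had 8.77, 8.07, 8.63, 8.12 and 7.0 log2 in PI arrays 1 to 5 and 5.36, 5.6 and 5.36 log2 in control arrays 1 to 3 (log2 fold change 2.68, SE 0.25, limma adjusted p = 9.32e-08). In both cytokines every PI array lay above the controls and PI replicate 5 was the lowest of them. Tnfrsf12a, the receptor of TWEAK, rose by 2.06. Tnf and Il10 were not called (-0.03 and 0.01), and Csf1, the growth factor of macrophages, fell by 0.87 log2 (-0.15, -0.37 and -0.51 in its other probe sets). Of the genes of prostaglandins and leukotrienes 5 of 22 rose and 5 fell (2 rises without control replicate 3 and 2 falls without PI replicate 5 or control replicate 2). Ptgs2, the inducible cyclooxygenase, rose by 1.66 (adjusted p = 0.0575 without control replicate 3), whereas the leukotriene enzymes Alox5 and Ltc4s fell by 1.07 and 1.13. Of the acute phase genes 4 of 17 rose and 2 fell (no falls without PI replicate 3 or control replicates 2 or 3). The protease inhibitor A2m had 9.83, 9.88, 9.74, 10.03 and 9.69 log2 in PI arrays 1 to 5 and 7.78, 7.49 and 7.17 log2 in control arrays 1 to 3 (log2 fold change 2.35, SE 0.25, limma adjusted p = 3.84e-07), and Lbp, which presents bacterial lipopolysaccharide, rose by 0.99. In the complement list 2 of 20 rose and 4 fell (1 rise without PI replicates 3 or 4 or control replicates 1 or 3, 4 rises without PI replicate 1 and no falls without control replicate 3). The inhibitor Cfi rose by 1.45 log2, and C3 was not called (-0.21).

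Genes of resident leukocytes gave few calls, to be set beside 14.5% higher and 12% lower over all genes. Of 26 macrophage genes 1, Adgre1, rose (0.68, adjusted p = 0.0665 to 0.294 without PI replicates 2, 3 or 4 or control replicates 1 or 3) and 4 fell (no rises without PI replicates 2, 3 or 4 or control replicates 1 or 3, 2 rises without PI replicate 5 or control replicate 2, 2 falls without control replicate 2 and 8 falls without control replicate 1). Arg1, arginase of alternatively activated macrophages, had 10.58, 9.9, 9.87, 10.17 and 10.3 log2 in PI arrays 1 to 5 and 12.2, 11.18 and 11.84 log2 in control arrays 1 to 3 (log2 fold change -1.58, SE 0.25, limma adjusted p = 8.53e-05), with the PI arrays all below the controls, and Cd5l fell by 1.22 log2 (-0.06 in its other probe set). Cd68, Csf1r and Cd163 were not called (-0.17, -0.28 and 0.24). In the mast cell list, 1 of 13 rose and 4 fell (no rises without control replicate 3, no falls without PI replicate 3 or control replicate 2 and 7 falls without PI replicate 2), with Cpa3 and Fcer1a at -1.05 and -1.22 log2 and not called. Among the lymphocyte genes 2 of 24 rose and 2 fell (1 rise without PI replicates 1, 2, 3 or 4 or control replicates 2 or 3 and 1 fall without control replicate 2). Cd8a had 7.67, 7.39, 7.97, 7.84 and 6.75 log2 in PI arrays 1 to 5 and 5.59, 5.34 and 5.1 log2 in control arrays 1 to 3 (log2 fold change 2.18, SE 0.23, limma adjusted p = 5.57e-07, and 2.23 and 0.44 in its other probe sets) and did not overlap between the groups, but Cd3e, Cd3g and Cd3d of the T cell receptor complex were not called (-0.42, -0.48 and -0.29). Cd69, an early activation antigen, and Cd4 fell by 1.63 and 0.87 log2 (for Cd4, adjusted p = 0.0971 without control replicate 2). Of the genes of MHC class II presentation 1 of 12 rose and 1 fell (no rises without control replicates 1 or 3, 4 rises without control replicate 2 and no falls without PI replicates 1, 2, 4 or 5 or control replicates 1, 2 or 3), and of the chemokine receptors 1 of 13 rose and 1 fell (no rises without PI replicates 3 or 4 or control replicates 1 or 3, 2 rises without PI replicates 2 or 5 and 2 falls without control replicate 1), with Cxcr4 at 0.62 (adjusted p = 0.0540 to 0.185 without PI replicates 3 or 4 or control replicates 1 or 3) and Ackr3, which clears Cxcl12, lower by 0.53 log2. In the interferon list 5 of 24 rose and 1 fell (1 rise without control replicate 3), with Gbp2 at 0.83 log2 and Mx1 lower by 1.25 log2.

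**Figure D4:**
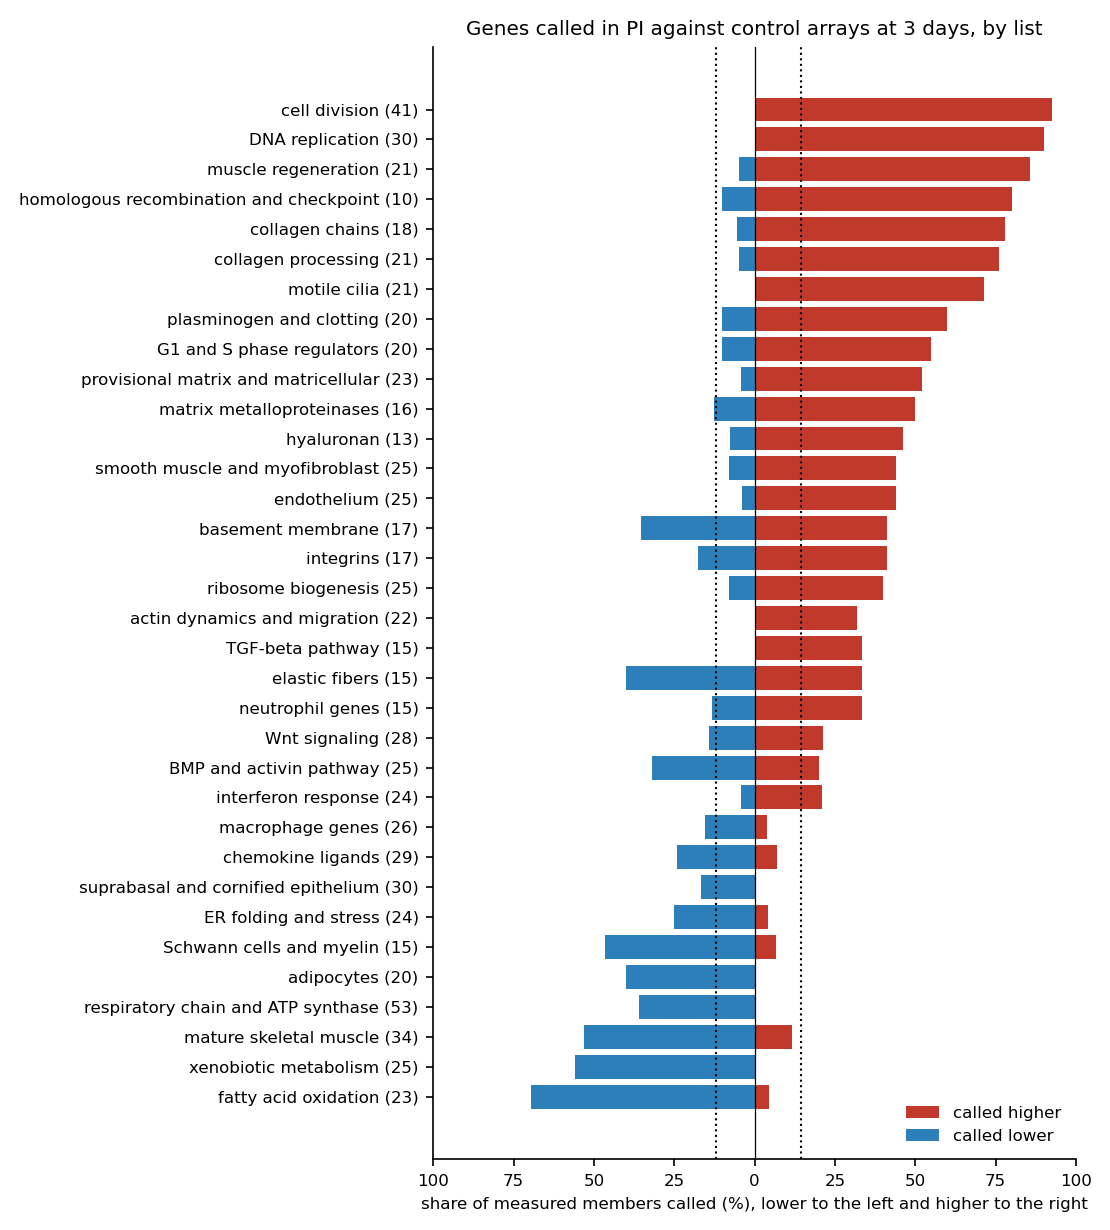
Share of the measured members of 34 gene lists that were called higher (bars to the right) or lower (bars to the left) in PI than in control arrays, in percent, with the number of measured members after each name. Dotted lines mark the shares over all genes, 14.5% higher and 12% lower. The longest bars to the right are those of cell division (92.7%) and DNA replication (90%), and the longest to the left are those of fatty acid oxidation (69.6%) and xenobiotic metabolism (56%).

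Epithelial genes differed by cell type. In the motile cilia list 15 of 21 measured members rose and none fell (7 rises without control replicate 3), with a median log2 fold change of 0.83 (0.81 without PI replicate 5, in which the list was highest). Ccno, needed to amplify centrioles in cells that become multiciliated, had 9.94, 10.06, 9.67, 10.23 and 10.57 log2 in PI arrays 1 to 5 and 6.16, 7.0 and 6.52 log2 in control arrays 1 to 3 (log2 fold change 3.53, SE 0.41, limma adjusted p = 1.64e-06). Foxj1, the transcription factor of motile cilia, had 9.4, 9.48, 9.22, 9.77 and 9.98 log2 in PI arrays 1 to 5 and 8.91, 8.76 and 8.54 log2 in control arrays 1 to 3 (log2 fold change 0.83, SE 0.25, limma adjusted p = 0.0151, adjusted p = 0.0802 without control replicate 3). The axonemal genes Ropn1l, Zmynd10, Tekt1 and Dnaaf1 rose by 2.25, 1.57, 1.52 and 1.38 log2. The RFX motif GTTGCC, on either strand, bound by factors that work with Foxj1, occurred in 7 of the 16 cilia promoters found (43.8%), against 12.2% of all promoters. It lies near the start site of Tekt1, shown with the match in capitals. Tekt1 was picked as the largest rise of the list whose printed bases held the motif.
Tekt1 (chr10:57479122-57479271, minus strand): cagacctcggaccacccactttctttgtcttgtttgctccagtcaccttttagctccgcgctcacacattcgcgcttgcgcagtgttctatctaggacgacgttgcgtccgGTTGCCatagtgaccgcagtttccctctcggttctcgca
Of 9 genes of basal and wound keratinocytes 3, the keratins Krt5, Krt14 and Krt17, rose (0.38, 0.42 and 1.02 log2), but each of these calls was lost without control replicate 1 or 3 (adjusted p = 0.0895 to 0.116 without control replicates 1 or 3 for Krt5, adjusted p = 0.0626 to 0.134 without control replicates 1 or 3 for Krt14 and adjusted p = 0.113 to 0.117 without control replicates 1 or 3 for Krt17). None of 30 genes of suprabasal and cornified epithelium rose and 5 fell (3 rises without control replicate 2 and no falls without control replicate 2), among them the transglutaminase Tgm1 (-1.05, adjusted p = 0.0784 without control replicate 2). In the list of tight junctions and polarity 1 of 20 rose and 5 fell (3 falls without control replicates 1 or 3), with the claudins Cldn10 and Cldn3 lower by 1.34 and 0.83 log2. Ivl, Dsp and Dsg1 were not called (0.02, 0.05 and 0.09).

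In the mucus and secretory list 1 of 23 rose and 5 fell (2 rises without PI replicate 5), and 2 of the 5 were among the largest falls of all. Tff2, a trefoil peptide secreted with mucus, had 11.29, 8.81, 7.43, 7.96 and 7.99 log2 in PI arrays 1 to 5 and 12.22, 12.22 and 12.12 log2 in control arrays 1 to 3 (log2 fold change -3.49, SE 0.65, limma adjusted p = 4.03e-04). Upk1a, a plaque protein of superficial cells, had 5.1, 5.82, 5.39, 5.43 and 5.63 log2 in PI arrays 1 to 5 and 8.49, 8.53 and 8.31 log2 in control arrays 1 to 3 (log2 fold change -2.97, SE 0.25, limma adjusted p = 1.61e-08). Both lay lower in every PI array than in any control. Spdef, a transcription factor of goblet cells, fell by 1.15 log2, and the mucins Muc5b and Muc5ac were not called (-0.39 and 0.68). Bpifb1, an airway secretory protein, had 13.54, 12.97, 13.73, 13.33 and 14.09 log2 in PI arrays 1 to 5 and 10.55, 11.19 and 10.75 log2 in control arrays 1 to 3 (log2 fold change 2.7, SE 0.30, limma adjusted p = 9.49e-07), with every PI array above every control. Of the genes of ion and water transport 2 of 14 rose and 5 fell (1 rise without PI replicates 2, 4 or 5 or control replicates 1, 2 or 3 and 3 falls without control replicate 3). Cftr, the chloride channel, rose by 1.66 log2, and Aqp5, Scnn1a and Kcnn4 fell by 1.01, 0.91 and 1.74. None of 25 enzymes of xenobiotic metabolism rose and 14 fell. Cyp2a3 had 8.12, 9.14, 8.54, 8.74 and 10.53 log2 in PI arrays 1 to 5 and 11.66, 10.86 and 11.73 log2 in control arrays 1 to 3 (log2 fold change -2.4, SE 0.41, limma adjusted p = 1.57e-04), PI replicate 5 being the highest PI array. Ces1d, Sult1a1, Gsta1 and Gstm2 fell by 2.03, 2.04, 1.57 and 1.44 log2. Of the retinoid genes 4 of 14 rose and 5 fell. The binding protein Crabp2 and the esterifying enzyme Lrat rose by 2.11 and 0.98 log2, while Aldh1a2 and Rarb fell by 0.86 and 0.80. Of 23 antioxidant genes 3 rose and 3 fell (1 rise without control replicate 3 and 5 rises without PI replicate 5). Hmox1, which breaks down heme, had 12.31, 12.01, 12.53, 12.78 and 12.15 log2 in PI arrays 1 to 5 and 9.74, 10.18 and 9.69 log2 in control arrays 1 to 3 (log2 fold change 2.48, SE 0.19, limma adjusted p = 5.6e-09), with every PI array above every control, and extracellular superoxide dismutase, Sod3, fell by 1.35. Nqo1 and Txnrd1, targets of Nrf2 as is Hmox1, were not called (-0.42 and 0.01).

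Muscle genes differed by stage. In the list of muscle regeneration 18 of 21 rose and 1 fell (no falls without control replicates 1 or 3), and the median log2 fold change was 2.23. Myh3, the embryonic myosin, and Mymk, which fuses myoblasts, rose by 6.22 and 5.33 log2. The list of 34 mature genes had 4 rises and 18 falls (9 falls without control replicate 1), and in 14 of the 18 the PI and control arrays overlapped. By contrast, the groups did not overlap in 3176 of all 3771 called genes. The summed linear signal of the mature list, weighted to its brightest genes, was 102200 to 170600 in PI arrays and 143400 to 239400 in control arrays. Myoz3 and Myh13, genes of fast and extraocular or laryngeal fibers, and Perm1, a regulator of muscle mitochondria, fell by 2.72, 2.57 and 2.58 log2, and Smtnl1 and Rpl3l by 2.18 and 2.21. Tnnc1, troponin C of slow and cardiac muscle, had 11.41, 11.67, 11.55, 11.63 and 10.02 log2 in PI arrays 1 to 5 and 6.54, 6.56 and 6.86 log2 in control arrays 1 to 3 (log2 fold change 4.6, SE 0.32, limma adjusted p = 1.22e-09), the largest rise outside the muscle lists and tenascins.

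Genes of oxidative metabolism held many falls and almost no rises. Of 53 subunits of the respiratory chain and ATP synthase, none rose and 19 fell (4 falls without control replicate 1), with a median log2 fold change of -0.41 (-0.25 without PI replicate 5). Ndufa9 of complex I fell by 0.74 log2 and Sdha of complex II by 0.60. Of 23 genes of fatty acid oxidation 1 rose and 16 fell (9 falls without control replicate 1). Fabp3, the fatty acid carrier of heart and muscle, had 10.69, 10.35, 10.49, 9.72 and 9.02 log2 in PI arrays 1 to 5 and 12.48, 11.16 and 12.21 log2 in control arrays 1 to 3 (log2 fold change -1.9, SE 0.31, limma adjusted p = 1.11e-04). Acadm, the medium-chain dehydrogenase, had 11.55, 11.12, 11.43, 11.03 and 11.35 log2 in PI arrays 1 to 5 and 12.99, 12.09 and 12.9 log2 in control arrays 1 to 3 (log2 fold change -1.36, SE 0.17, limma adjusted p = 3.07e-06), and control replicate 2 was the lowest control for both. Cpt1a, the carnitine transferase of liver and other tissues, rose by 0.45, and its muscle form Cpt1b fell by 0.86 (adjusted p = 0.0890 to 0.127 without control replicates 1 or 3). Of 14 citric acid cycle genes none rose and 7 fell (3 falls without control replicate 1). In the glycolysis list 3 of 25 rose and 7 fell (1 rise without control replicate 3). The muscle forms Pfkm, Pgam2 and Eno3 fell by 1.32, 1.34 and 0.87 log2 (for Pfkm, -1.39 and 0.05 in its other probe sets), while the glucose transporter Slc2a3 rose by 0.95. The mature muscle list moved with these genes, and its part in their falls was not tested. Of 33 ribosomal protein genes 1, Rpl28, rose (0.30, adjusted p = 0.0599 to 0.274 without PI replicates 2, 3 or 4 or control replicates 2 or 3), and the other 32 had 95% intervals of the difference within 1.5-fold. Of 25 genes of ribosome biogenesis 10 rose and 2 fell (4 rises without control replicate 3 and 1 fall without control replicates 2 or 3), with Pes1 and Nop58 at 0.35 and 0.48 log2. In the list of endoplasmic reticulum folding 1 of 24 rose and 6 fell (no rises without PI replicates 3, 4 or 5 or control replicates 1 or 3, 2 rises without control replicate 2 and 1 fall without control replicate 1), with Herpud1 lower by 0.78 log2 and Hspa5 not called (0.05). Of 18 sterol synthesis genes none rose and 4 fell (2 falls without control replicate 2), among them Insig1 and Fdft1 by 0.75 and 0.53 log2, and of 17 clock genes 7 fell and 1, Bhlhe40, rose (2 rises without control replicate 2), with Bhlhe41 and Hlf lower by 1.37 and 0.94 log2 (for Hlf, -0.14, -0.85 and -0.80 in its other probe sets).

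Several nerve and fat genes fell. Of 15 Schwann cell and myelin genes 7 fell, among them S100b, Gfap and Sox10 by 1.6, 1.28 and 0.98 log2, while Gap43, of growing axons and denervated Schwann cells, had 8.82, 8.85, 8.78, 8.81 and 8.39 log2 in PI arrays 1 to 5 and 7.89, 7.52 and 7.33 log2 in control arrays 1 to 3 (log2 fold change 1.15, SE 0.20, limma adjusted p = 1.82e-04, and 0.00 in its other probe set). None of 11 neurotrophic factor genes rose and 5 fell, with Nrtn, neurturin, at 6.91, 6.61, 6.84, 6.85 and 6.47 log2 in PI arrays 1 to 5 and 8.13, 7.9 and 7.9 log2 in control arrays 1 to 3 (log2 fold change -1.24, SE 0.18, limma adjusted p = 2.31e-05). Of 20 adipocyte genes none rose and 8 fell. These were genes shared with muscle or vessels, such as Plin4, Slc2a4, Fabp4 and Lpl (lower by 2.0, 1.83, 1.56 and 0.92 log2), and Adipoq, Plin1 and Cidec, the markers of the fat cell itself, were at 4.19 to 5.78 log2 in every array and were not called. Of 16 cartilage genes 1, Col11a1, rose (1.31, adjusted p = 0.0654 to 0.121 without PI replicates 1 or 4 or control replicates 2 or 3, and 0.10 and 1.51 in its other probe sets), and without PI replicate 5 the rises were 2. In Comp the 5 PI arrays had 9.12, 8.85, 6.94, 9.85 and 6.66 log2 and the 3 control arrays 7.14, 6.79 and 6.74 log2, with PI replicates 3 and 5 at or below the control range. Of 10 thyroid and parathyroid genes, 1 rose and 3 fell (1 fall without control replicates 2 or 3). The riser was Slc26a4, an anion exchanger that airway epithelium also has (1.71 ± 0.34 log2). None of 9 genes of red cells and platelets was called.

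Several large shifts lay outside the lists. Klk1, tissue kallikrein of glands, had 8.4, 9.0, 8.39, 8.52 and 7.45 log2 in PI arrays 1 to 5 and 4.89, 4.81 and 4.57 log2 in control arrays 1 to 3 (log2 fold change 3.6, SE 0.25, limma adjusted p = 1.08e-09). Lrrc15, a surface protein of activated fibroblasts, had 9.41, 9.55, 9.5, 9.08 and 9.6 log2 in PI arrays 1 to 5 and 5.78, 5.96 and 5.92 log2 in control arrays 1 to 3 (log2 fold change 3.54, SE 0.14, limma adjusted p = 3.64e-13). Vash2, a vasohibin that removes tyrosine from tubulin, rose by 2.92 ± 0.17 log2 in the probe set used, whereas its other 3 probe sets gave 3.88, 0.33 and -0.06. In these 3 genes every PI array lay above every control. The rule that named the genes of this paragraph, rises and falls, took only called genes without overlap. That feature therefore follows from the choice. Among the falls, Sctr, the secretin receptor, had 5.69, 5.93, 6.52, 6.5 and 6.05 log2 in PI arrays 1 to 5 and 7.99, 9.47 and 9.21 log2 in control arrays 1 to 3 (log2 fold change -2.75, SE 0.31, limma adjusted p = 9.23e-07), with no overlap. Phex, an endopeptidase of bone and other tissues, fell by 2.38 log2, the metallothionein Mt3 by 2.24 and Nxpe2 by 2.69, and the PI arrays of each lay below all its controls.

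The remaining lists held few calls or calls in both directions. In the list of hypoxia 3 of 15 rose and 6 fell, with Car9 and Hif1a at 0.75 and 0.71 log2 and Egln3, a hydroxylase induced by hypoxia, lower by 1.24. Of the immediate early genes 3 of 21 rose and 4 fell (1 rise without control replicates 1 or 3, 5 rises without PI replicate 5 and 2 falls without control replicate 2), with Fos at 0.78 (adjusted p = 0.0666 without control replicate 1, and 0.01 in its other probe set) and Nr4a3 lower by 0.75 (-1.1 and -0.02 in its other probe sets). Of the S100 genes 4 of 14 rose and 2 fell, and S100a3, of hair and epithelium, rose by 2.27. Of the genes of chemosensory and neuroendocrine cells 1 of 11 rose and 5 fell (1 fall without control replicate 1), with Dclk1 at 0.97 (0.12, 2.45 and 0.22 in its other probe sets) and Avil, of tuft cells, lower by 0.86 (adjusted p = 0.0774 without control replicate 2). Of 29 proteasome genes 2 rose and none fell (1 rise without control replicates 1, 2 or 3), with Psmd12 at 0.45 log2 (adjusted p = 0.101 to 0.127 without control replicates 2 or 3). Of 11 heat shock genes 1, the cochaperone Dnaja1 (0.40, and 0.08 in its other probe set), rose and 1, Cryab (-0.54, adjusted p = 0.0550 to 0.195 without PI replicates 3, 4 or 5 or control replicates 1 or 3), fell (2 rises without PI replicates 1 or 3, no falls without PI replicates 3, 4 or 5 or control replicates 1 or 3 and 2 falls without control replicate 2). None of 9 annexins was called (3 rises without control replicate 2). Of 22 lysosomal genes 2, the cathepsins Ctsl and Ctsc, rose by 0.63 and 0.49 log2, and 2 fell (no falls without control replicates 2 or 3). Of 14 Notch genes 3 rose and none fell (1 rise without control replicate 1), with Heyl, a target of the pathway, at 0.69. Of 24 guidance genes 2 rose and 4 fell (1 rise without control replicates 1 or 3 and 2 falls without control replicate 3), with Slit2 at 0.87 (0.02 and 0.30 in its other probe sets) and Epha4 lower by 0.91 (-0.84, -0.52 and -0.06 in its other probe sets). Of 14 IGF genes 2 rose and 1, the binding protein Igfbp2, fell (2 falls without PI replicates 1, 2 or 5) by 1.2 log2. Of 10 targets of p53, 3 rose and 2 fell, with Mdm2 at 0.60 (adjusted p = 0.0546 to 0.0755 without control replicates 1 or 3) and Sesn1 lower by 0.49 (-0.16 in its other probe set).

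The injury effect at 3 days was set against that at 14 days in the same fit. It differed for 1123 genes (7.9%), of which 764 had the higher value at 3 days and 359 the higher value at 14 days. Each time had its own controls. The number was 748 without control replicate 1 of 3 days and 734 without control replicate 3, 5067 with array weights, and 2325 without 3 arrays of the series that deviated together, namely PI replicate 5 of 3 days, control replicate 3 of 14 days and PI replicate 4 of 60 days. Of the genes that rose at 3 days 746 were among them, and of those that fell 305. At 14 days 436 genes (3.07%) were called against their own controls.

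Several lists held a larger share of such genes than the 7.9% of all genes. The effect at 3 days is part of this contrast, and 1051 of the 3771 genes called at 3 days passed it (746 of 2064 rises and 305 of 1707 falls). A list with many calls at 3 days therefore tends to hold more of them, whatever its genes. The difference passed in 33 of 41 cell division genes, with a median log2 fold change of 1.69 at 3 days and 0.37 at 14 days, and in 18 of 30 DNA replication genes (0.77 and 0.18). It passed in 12 of 21 collagen processing genes (0.67 and 0.07) and 9 of 18 collagen chains (1.13 and 0.56), of which 10 were called higher at 14 days. It also passed in 11 of 23 provisional matrix genes, 6 of 17 basement membrane genes, 7 of 15 elastic fiber genes and 5 of 13 hyaluronan genes. In the basement membrane list 8 of 17 genes were called higher at 14 days and none lower. Col4a6 had log2 fold changes of -1.32 at 3 days and 0.36 at 14 days and Lama2 of -0.62 and 0.41, and the difference passed in both (adjusted p = 0.00286 or less). The motile cilia list had a median of 0.83 at 3 days and 1.17 at 14 days, and the effect differed in 1 of its 21 members, Ccno (3.53 and 0.90).

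Outside muscle, the tenascins gave the largest differences, 4.80 log2 for Tnn and 4.74 log2 for Tnc. The log2 fold changes at 3 and at 14 days were 3.54 and 0.14 for Lrrc15, and for Mmp13 3.51 and 0.46, for Il24 2.68 and -0.21, and for Sftpa1, a surfactant protein and collectin, 2.0 and -0.95 (adjusted p of the differences 0.0155 or less). In the other direction the largest differences were those of Cmahp, a homologue of the sialic acid hydroxylase (-1.23 at 3 days and 2.46 at 14 days; for the call at 3 days, adjusted p = 0.0597 to 0.215 without PI replicates 1, 2, 3 or 4 or control replicates 1, 2 or 3), Tff2 (-3.49 and 0.09), Jchain, the joining chain of secreted antibodies (-1.09 and 1.88, not called at 3 days), Upk1a (-2.97 and -0.46), Myl2, a myosin light chain of slow muscle (-0.88 and 1.57; for the call at 3 days, adjusted p = 0.0514 to 0.152 without PI replicate 4 or control replicate 3, and -0.23 in its other probe set at 3 days), and Phex (-2.38 and 0.02). For Tff2 the mean at 14 days was 10.83 log2 in PI and 10.74 log2 in control arrays, so that its controls also differed between the ages, with 12.22, 12.22 and 12.12 log2 at 3 days. Vcan, Tnfaip6, Has2 and Cemip of the hyaluronan list had log2 fold changes of 0.93, 1.62, 1.06 and 2.67 at 3 days and -0.57, -0.75, -0.16 and 0.87 at 14 days. Il6 and Lbp had 1.61 and 0.99 at 3 days and -0.37 and -0.51 at 14 days, and Hmox1 2.48 and 0.07. The difference passed for each of these 7 genes (adjusted p = 0.00632 or less).

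**Figure D5:**
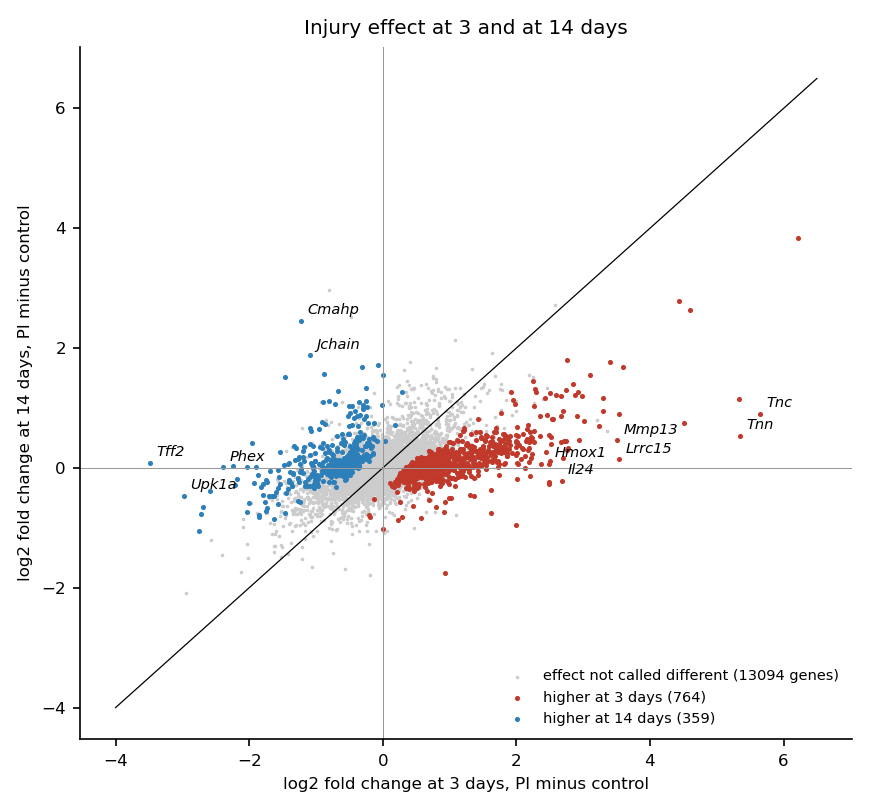
Each point is a gene, with the log2 fold change of PI against control arrays at 3 days on the x axis and at 14 days on the y axis. The 1123 genes whose effect differed between the times are coloured, 764 of them to the right of the diagonal and 359 to the left, and 11 of the genes of the text are named.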

How the data were processed

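VF mucosae were profiled on Affymetrix rat genome arrays, 4 rats pooled per array. The authors processed the scans with RMA (affy, per the submitters' processing notes, no version given), which corrects background, brings arrays to 1 distribution and summarizes probes, and the deposited values are log2 signals of 31099 probe sets. The genome build behind the probe annotation is not given in the sources used here. Arrays have no read depth, and precision is set by how many there are.

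Of 31042 probe sets without controls, 20826 had 1 gene symbol, 436 several and 9780 none, by GEO's platform annotation updated through RefSeq (20758 by gene number, 2 by accession, 66 kept as given). A gene was represented by its probe set of median mean, which gave 14217 genes, 4525 of them with several probe sets. Groups and replicate numbers were taken from the labels. A linear model over 6 groups of the 23 mucosa arrays (17 residual degrees of freedom) was fitted with limma 3.58.1 in R 4.3.3, with moderated variances and Benjamini-Hochberg adjustment over all genes. The labels give 5 PI and 2 control arrays at 60 days, which the study's text counts otherwise, and PI replicate 4 of that time had the largest deviation of all mucosa arrays. These arrays enter the shared variance behind each SE and p, and a fit to the 3-day arrays alone gave 3717 calls. Nothing says that the pools of a group came from separate surgery days, so p-values measure the spread between these pools. The labels do not say that replicate numbers pair the arrays, and the main fit did not use them. Same-numbered PI and control arrays had deviations that correlated at 0.31, 0.19 and -0.03, which does not settle whether the numbers pair them.

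The arrays, the 80 gene lists and the tests were chosen with earlier results of these data known. Genes named were drawn from 828 that a rule gave. It took the 12 largest rises and falls without overlap (outside the muscle lists, Tnn and Tnc) and tissue markers. From each list it took the 6 largest called and 2 brightest uncalled members, and all members of lists of 16 or fewer. It took the 6 largest differences from 14 days in each direction outside the muscle lists. It also took the 8 genes in which PI replicate 5 lay farthest above and below the other PI arrays. The last were the 4 largest rises and falls called only without that array. The text names 365 genes in all, so many of the 828 are left out, and the rule did not choose which. Another 52 genes were named after their values were seen: Acta2, Axin2, Bub1, Camp, Ccl2, Ccl7, Ccn2, Ccnb2, Ccnd2, Cd3d, Cdc20, Cenpe, Cnn1, Col1a2, Col6a1, Col6a2, Cpt1a, Crtap, Cxcl12, Cxcl3, Dsg1, Ect2, F2r, Fgf10, Fgf7, Il10, Itgb5, Ivl, Kif11, Lama2, Lamc3, Lcn2, Mcm3, Mcm4, Muc5ac, Myc, Nog, Nqo1, P3h1, Pdgfrb, Sdha, Serpine2, Serpinh1, Tek, Tgfb1, Tgfb2, Tgm2, Timp4, Tnf, Txnrd1, Tyms and Vtn. Alternatives were other sets of arrays, array weights, other probe set rules, a filter on the 30% of genes of lowest mean, other normalizations, the replicate number as a block, a lognormal-normal model with a posterior probability over 0.95 and other variance settings, and 2 added after the data were seen. Arrays of cultured cells were not used here.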

Additional observations from a re-analysis of the deposited data

Results flagged for a closer look

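In 42 of the 365 genes named, 1 PI array lay apart from the other 4 by more than the gap test allows, where chance gives about 1 gene in 20. Over all 14217 genes this was so for 2721 (19.1%), and the array was PI replicate 5 in 2457 of them, against 54 to 88 for each other PI array. Values are given as the difference of that array from the mean of the other 4, on the log2 scale.

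Among genes of neutrophils, monocytes and stressed epithelium, PI replicate 5 was lower in S100a8 (-3.04), S100a9 (-3.64), S100a3 (-1.61), Sprr1a (-2.87) and Gpr15lg (-1.53). It was also lower in the chemokines Ccl2 (-1.31), Ccl7 (-2.04) and Ccl24 (-0.89), in the chemokine receptor Cxcr4 (-0.76), and in the leukotriene enzyme Ltc4s (-0.85). Among matrix and cytoskeletal genes it was lower in Timp1 (-1.05), Timp2 (-0.43), Ppib (-0.52), Hyal2 (-0.24), Kdelr3 (-0.37), Tagln (-0.51) and Tubb6 (-0.47) and higher in Loxl2 (0.63), Mmp14 (0.34) and Itgb1 (0.31). Among signaling and regulatory genes it was lower in Tnfrsf12a (-1.43), Crabp2 (-1.51), Cdkn1c (-0.71), Twist1 (-0.70), Pdgfrb (-0.40) and Heyl (-0.25) and higher in Id4 (0.83), Mdm2 (0.65) and F2r (0.09). Among genes of muscle, nerve, fat and metabolism it was lower in Tnnc1 (-1.55), Fabp4 (-1.42), Slc2a3 (-0.47), Gap43 (-0.43) and Mt3 (-1.78). It was higher in Rgs22 (1.61), Tcea1 (1.45) and Ctsc (0.21). PI replicate 1 was higher in Muc5ac (1.32), Vegfa (0.54) and Tg (0.13) and lower in Cpt1a (-0.29), and PI replicate 4 was lower in Tgm2 (-0.16).

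The injury effect differed between 3 and 14 days in 1123 genes by the contrast of the effects. In the matrix the effect at 3 days less that at 14 days was 4.8 for Tnn, 4.74 for Tnc, 3.4 for Lrrc15, 3.05 for Mmp13, 1.8 for Cemip, 1.5 for Vcan, 2.36 for Tnfaip6 and 1.22 for Has2, and in the basement membrane it was -1.68 for Col4a6 and -1.03 for Lama2. It was 2.89 for Il24, 1.98 for Il6, 1.5 for Lbp and 2.41 for Hmox1 among inflammatory and stress genes, and 2.64 for Ccno, 2.95 for Sftpa1, -3.58 for Tff2, -2.51 for Upk1a and -2.96 for Jchain among epithelial and secretory genes. It was -3.68 for Cmahp, -2.46 for Myl2 and -2.4 for Phex for the other genes given at both times.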

How the results depend on the processing

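Across the alternatives, the number of called genes ran between 2676 and 5463 except with array weights, where it was 8342, with 4639 higher and 3703 lower. With the controls of the 3 ages pooled, 2629 were lower in place of 1707. With 1 array left out, 2676 to 3805 genes were called, 1518 to 2081 higher and 1158 to 1724 lower, and the effect differed from 14 days in 734 to 1377. That number was 5067 with array weights and 2325 without the 3 arrays that deviate together, a setting chosen after the data were seen. The cause of these shifts was not tested. The replicate block gave 4128 calls. The labels do not pair same-numbered arrays. The correlations of their deviations were 0.31, 0.19 and -0.03, and 2 of 3 PI arrays and 3 of 3 controls correlated best with their own number. No level by chance was computed for these counts, so they do not settle whether the numbers pair the arrays. A lognormal-normal model written here after the kind the study used called 2694 genes, and the filter on dim genes left fewer genes tested and 2986 calls. The probe set of the highest mean reversed the sign for Itgb5 (0.051), Pdgfrb (0.73), Vash2 (-0.065) and Vcan (-0.10), array weights gave Myc 0.30, and the mean of its probe sets gave Il1rl1 1.24. Of the 277 called genes named, 252 passed with each array left out and 243 passed in the same direction under all settings but the filter and the lognormal-normal model. The median SE of a log2 fold change was 0.12, which limits how small a change could be called. Values are levels among the RNAs of an array, pools hide differences between rats, and the part of unequal cartilage, muscle and epithelium between pools was not tested.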
